A study of Homo sapiens with 4 samples.

Results

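The 41 genes described here were 21 interferon-induced effectors, 4 transcription factors of the interferon response, 12 genes of the HLA class I antigen presentation pathway and 4 genes of the class II pathway. They were taken as a list, by name, from the annotation of the array, and each was read through the probe set with the highest mean log2 intensity over the 4 arrays. Of the 19775 genes named by that annotation, 13794 had a mean log2 intensity of at least 5, an intensity of 32, and are called measured. Of the 41 genes, 40 had a probe set of their own and 36 were measured: 17 of 21 effectors, 3 of 4 transcription factors, all 12 class I genes and all 4 class II genes. IFI27, IFI44L, RSAD2 and XAF1 were under the minimum, with intensities between 8.95 and 29.6 over the 4 arrays and log2 differences between -0.38 and 0.49. STAT2 had no probe set of its own and enters only the promoter search below.

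Type I and type III interferons are secreted when a cell senses foreign nucleic acid. Interferons act through JAK kinases and STAT and IRF transcription factors on many target genes. The type I and type III interferons signal through a STAT and IRF9 complex that binds the interferon-stimulated response element (ISRE), and interferon gamma signals through a STAT dimer that binds the gamma-activated site (GAS). Among the targets are antiviral effectors and much of the machinery that cuts proteins, carries the peptides into the endoplasmic reticulum and loads them on HLA class I for display to CD8 T cells. HLA class II, which displays peptides to CD4 T cells, is made mainly by professional antigen-presenting cells, but a share of melanomas make it too.

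Both cell lines, A375 and SK-MEL-28, are established human melanoma lines that carry an activating BRAF mutation. The groups were A375 with ZIC5 siRNA, A375 with negative control siRNA, SK-MEL-28 with ZIC5 siRNA and SK-MEL-28 with negative control siRNA, each taken 48 h after transfection and each measured on 1 HG-U133 Plus 2.0 array. ZIC5 encodes a zinc-finger transcription factor, and the comparison asks what its knockdown does to the transcriptome of each line. Every group had received an siRNA, and no untransfected cells were among these arrays. Intensities are RMA values on a linear scale, with medians between 38.4 and 39.4 over the arrays, and are not comparable between genes. The single ZIC5 probe set had intensities between 14.1 and 21.4 on all 4 arrays, under the level minimum, so the knockdown could not be checked from it. The melanocytic markers MLANA, PMEL and TYR had intensities between 1373 and 18212 on the SK-MEL-28 arrays but only between 13.9 and 35.9 on the A375 arrays, while SOX10 was between 894.5 and 2135 on all 4. MITF was between 235 and 357 on the A375 arrays and between 5089 and 6205 on the SK-MEL-28 arrays. Of the other markers of the lineage, S100B and RAB27A were between 196 and 413 in A375, and TYRP1 and GPR143 between 7.51 and 33.4. A375 is thus a line labelled melanoma in which MLANA, PMEL and TYR lay near the bottom of the scale, but not every marker of the lineage did.

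Motifs of the interferon response were searched in the promoters of the list. Much of the list was chosen by name for interferon induction, so its share of matches is no test of the list. RefSeq promoters of assembly GRCh38.p14, from 250 bases before to 50 after the start of a gene, were found for 31 of the 41 genes, with 41 promoters in all. The ISRE core, searched as GAAANNGAAA on both strands, was present in 24 of these 41 promoters (58.5%), against 3.57% of all 35116 promoters in the table. By gene, 13 of 16 effectors and 7 of 10 class I genes had a match, and 0 of 3 transcription factors and 0 of 2 class II genes had one. The 3 factors searched were IRF1, IRF9 and STAT2, and IRF7 had no promoter in the table. The GAS core, TTCNNNGAA, was present in 24.4% of the promoters of the list and 7.66% of all promoters. The CCAAT box, searched as CCAAT on both strands, was present in 39% of the promoters of the list and 34.6% of all promoters. A match is a description of these letters and not a shown binding site.

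The 180 bases before the start are printed below for 6 genes: HERC5, IFIT1 and OAS3, which had the lowest A375 differences among effectors with a promoter in the table other than MX1; IFI6 and BST2, which differed between the lines; and B2M, which differed little in any comparison. They are written 5′ to 3′ on the strand of the gene, and the capitals mark every match to the ISRE core. The promoters lie at chr4:88456939-88457118 on the plus strand for HERC5, chr10:89392443-89392622 on the plus strand for IFIT1, chr12:112938294-112938473 on the plus strand for OAS3, chr1:27672193-27672372 on the minus strand for IFI6, chr19:17405631-17405810 on the minus strand for BST2 and chr15:44711337-44711516 on the plus strand for B2M.
HERC5: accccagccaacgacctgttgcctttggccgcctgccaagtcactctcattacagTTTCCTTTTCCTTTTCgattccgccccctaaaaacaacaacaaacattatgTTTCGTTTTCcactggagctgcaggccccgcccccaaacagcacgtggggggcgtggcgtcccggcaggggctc
IFIT1: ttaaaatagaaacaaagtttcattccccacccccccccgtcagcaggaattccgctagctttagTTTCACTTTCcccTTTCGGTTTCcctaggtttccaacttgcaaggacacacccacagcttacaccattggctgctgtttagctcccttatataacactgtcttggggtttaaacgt
OAS3: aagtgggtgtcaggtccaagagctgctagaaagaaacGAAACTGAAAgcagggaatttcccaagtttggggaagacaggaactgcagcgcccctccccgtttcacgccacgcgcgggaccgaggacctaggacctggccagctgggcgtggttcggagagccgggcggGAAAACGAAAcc
IFI6: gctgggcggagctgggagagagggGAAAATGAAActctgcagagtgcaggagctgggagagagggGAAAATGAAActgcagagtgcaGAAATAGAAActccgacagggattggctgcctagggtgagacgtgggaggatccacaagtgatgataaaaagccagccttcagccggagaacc
BST2: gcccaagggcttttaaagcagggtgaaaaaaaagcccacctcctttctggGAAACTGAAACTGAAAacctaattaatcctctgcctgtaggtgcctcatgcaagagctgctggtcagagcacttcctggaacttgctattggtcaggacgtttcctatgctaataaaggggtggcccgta
B2M: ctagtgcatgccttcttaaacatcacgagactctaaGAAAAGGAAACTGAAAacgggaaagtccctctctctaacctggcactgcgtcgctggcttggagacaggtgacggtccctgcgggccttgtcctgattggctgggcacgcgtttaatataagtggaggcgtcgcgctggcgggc
HERC5 held 3 matches in 2 runs, the first of which began 125 bases before the start, and IFIT1 held 2, whose first bases lay 116 and 103 before it. In OAS3 the 2 matches began 143 and 12 bases before the start, and in IFI6 the 3 matches began between 156 and 93 bases before it. BST2 and B2M each held 2 overlapping matches in 1 run, which began 130 bases before the start in BST2 and 144 bases before it in B2M.

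With ZIC5 siRNA, a few interferon effectors had lower intensities in A375. The 16 listed class I and class II genes stayed within 1 log2 unit of control in both lines, as did most measured genes. HERC5, the ligase that attaches ISG15 to new proteins, had a log2 difference of -1.72 in A375 and -0.80 in SK-MEL-28. IFIT1, which binds foreign RNA, had -1.49 in A375, and MX1, a dynamin-like antiviral GTPase, -1.06. All 3 measured transcription factors, IRF1, IRF7 and IRF9, were higher with ZIC5 siRNA in both lines, by at most 0.48. A difference here is the log2 intensity under ZIC5 siRNA less the one under control siRNA for that line, so each rests on 1 array against 1 and has no replicate check.

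By size, 3 of 36 measured genes of the list were at least 2-fold lower in A375 (HERC5, IFIT1 and MX1) and 0 at least 2-fold higher, where 5.05% of all measured genes were at least 2-fold lower and 3.89% at least 2-fold higher. In SK-MEL-28, 0 of 36 were at least 2-fold lower and 0 at least 2-fold higher, where 2.12% and 0.776% of all measured genes were. None of the 36 was at least 2-fold lower in both lines, which 1.15% of all measured genes were. The limma fit over both lines, with the line as a block, gave 0 of 36 at an adjusted p under 0.05, and 0% of all measured genes passed it. At an unadjusted p under 0.05 the fit gave 1 of 36, HERC5, against 13.2% of all measured genes. The 2-fold counts of the list were thus near the background in both lines, and at the adjusted threshold the list and all measured genes were alike at 0.

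**Figure D1:**
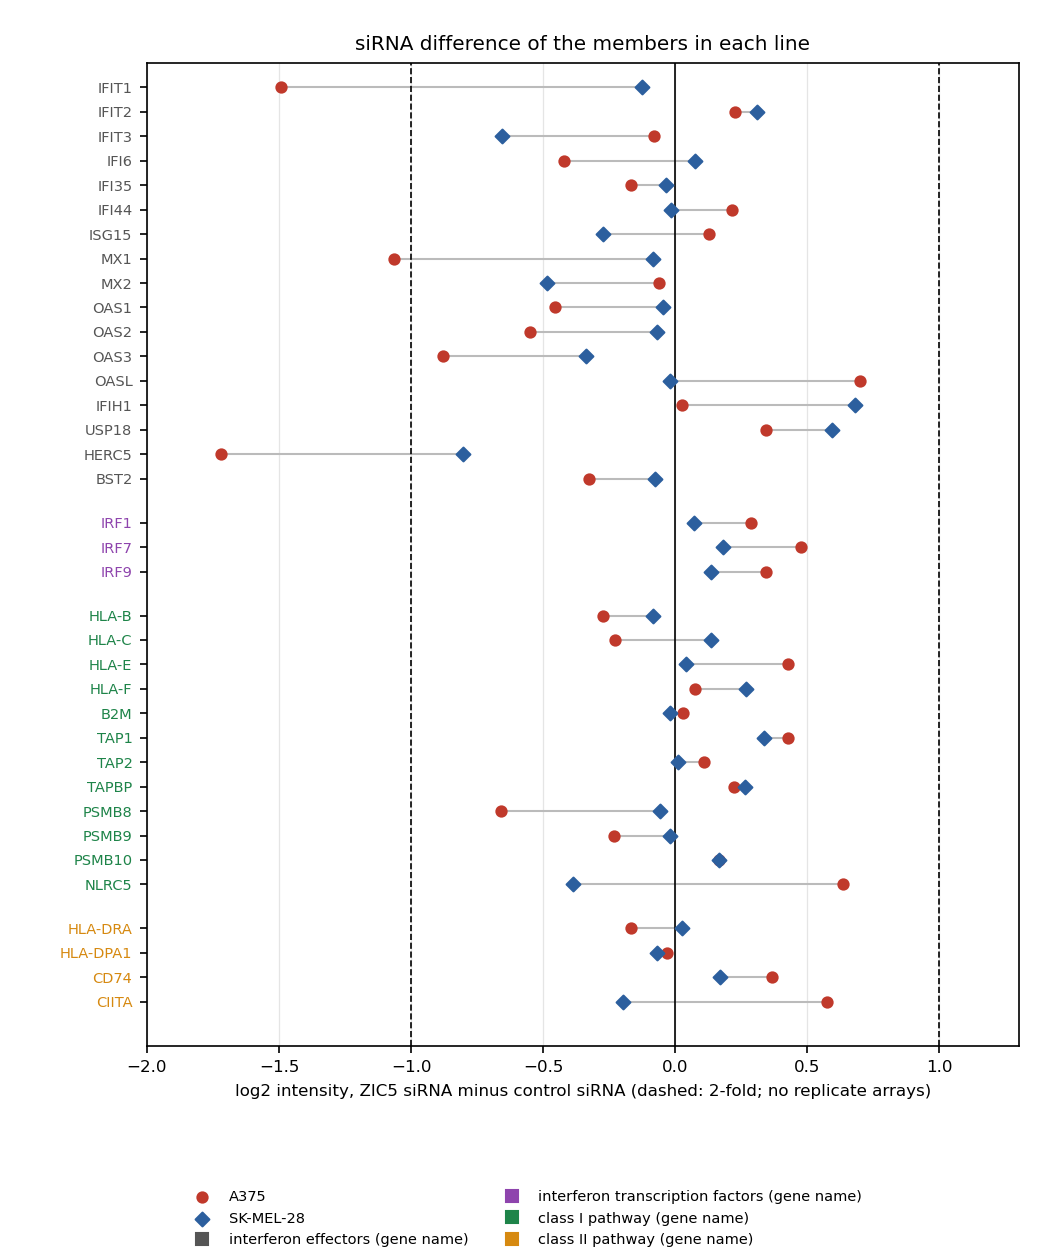
siRNA differences of the 36 measured genes, in log2 intensity, ZIC5 siRNA minus control siRNA (x axis), with circles for A375 and diamonds for SK-MEL-28, 1 array per group and dashed lines at a 2-fold difference. HERC5, IFIT1 and MX1 lie beyond the left dashed line in A375, at -1.72, -1.49 and -1.06, and no gene does in SK-MEL-28.

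The IFIT proteins bind RNA and block its translation. IFIT1 had an intensity of 22.6 with ZIC5 siRNA and 63.6 with control siRNA in A375, and of 44.8 with ZIC5 siRNA and 48.9 with control siRNA in SK-MEL-28. The A375 array with ZIC5 siRNA was the low one, at an intensity under 32, and with all intensities under 32 set to 32 the A375 log2 difference became -0.99. IFIT2, a partner of IFIT1 and IFIT3 in the same RNA-binding complex, went the other way. IFIT2 read 65.4 with ZIC5 siRNA against 55.9 with control siRNA in A375, and 67.9 with ZIC5 siRNA against 54.9 with control siRNA in SK-MEL-28. Its log2 differences were 0.23 in A375 and 0.31 in SK-MEL-28. IFIT3 had an intensity of 177 with ZIC5 siRNA and 187 with control siRNA in A375, and of 106 with ZIC5 siRNA and 166 with control siRNA in SK-MEL-28. IFIT3, which stabilises IFIT1, was low on the SK-MEL-28 array with ZIC5 siRNA (-0.65) and near control in A375 (-0.08), and its other measured probe set had the same signs. IFIT2 and IFIT3 are neighbours on chromosome 10, and their differences had opposite signs in both lines.

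ISG15 is a ubiquitin-like protein, HERC5 attaches it and USP18 removes it. ISG15 read 335 with ZIC5 siRNA against 306 with control siRNA in A375, and 241 with ZIC5 siRNA against 291 with control siRNA in SK-MEL-28. Its log2 differences, 0.13 in A375 and -0.27 in SK-MEL-28, were small and of opposite sign. HERC5 had an intensity of 41.4 with ZIC5 siRNA and 136 with control siRNA in A375, and of 193 with ZIC5 siRNA and 337 with control siRNA in SK-MEL-28. Both ZIC5 siRNA arrays were below their own control, and the mean log2 difference over the lines was -1.26 (SE 0.29, limma adjusted p = 0.311), which did not pass the threshold. USP18 read 153 with ZIC5 siRNA against 120.2 with control siRNA in A375, and 300.2 with ZIC5 siRNA against 199 with control siRNA in SK-MEL-28. USP18, which also dampens interferon receptor signalling, was higher than control in both lines, with 0.35 for A375 and 0.59 for SK-MEL-28. The enzyme that attaches the modifier and the one that removes it therefore differed in opposite directions, without passing the test for either (limma adjusted p = 0.397 for USP18).

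The MX proteins are GTPases that trap viral nucleoproteins or capsids. MX1 had an intensity of 46.9 with ZIC5 siRNA and 97.9 with control siRNA in A375, and of 66.9 with ZIC5 siRNA and 70.9 with control siRNA in SK-MEL-28. MX1 was low on the A375 array with ZIC5 siRNA and close to control in SK-MEL-28 (-0.08). MX2 read 438 with ZIC5 siRNA against 457 with control siRNA in A375, and 31.2 with ZIC5 siRNA against 43.7 with control siRNA in SK-MEL-28. MX2, its neighbour on chromosome 21, was close to control in A375 (-0.06) and lower in SK-MEL-28 (-0.49), where its intensities were near the level minimum.

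The oligoadenylate synthetases sense double-stranded RNA and make the second messenger that activates RNase L, and OAS1, OAS3 and OAS2 follow each other on chromosome 12. OAS1 had an intensity of 48.8 with ZIC5 siRNA and 66.8 with control siRNA in A375, and of 164 with ZIC5 siRNA and 169 with control siRNA in SK-MEL-28. OAS2 read 33.0 with ZIC5 siRNA against 48.3 with control siRNA in A375, and 114 with ZIC5 siRNA against 119 with control siRNA in SK-MEL-28. OAS3 had an intensity of 371 with ZIC5 siRNA and 681 with control siRNA in A375, and of 343 with ZIC5 siRNA and 433 with control siRNA in SK-MEL-28. All 3 were lower with ZIC5 siRNA in A375, with -0.45 for OAS1, -0.55 for OAS2 and -0.88 for OAS3, and lower by less in SK-MEL-28, with -0.05, -0.07 and -0.34 in the same order. The other measured OAS1 probe set had a log2 difference of 0.30 in A375, so the direction of OAS1 there depended on the probe set, and in SK-MEL-28 the other OAS2 probe sets were higher. OASL had an intensity of 61.1 with ZIC5 siRNA and 37.6 with control siRNA in A375, and of 37.8 with ZIC5 siRNA and 38.3 with control siRNA in SK-MEL-28. OASL, which has lost the synthetase activity, was higher with ZIC5 siRNA in A375 (0.70), in the opposite direction to the other OAS genes, and its other probe set had 0.89 there.

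The remaining measured effectors were a sensor, a tether and 3 interferon-induced proteins of other kinds. IFIH1 read 38.7 with ZIC5 siRNA against 38.0 with control siRNA in A375, and 141 with ZIC5 siRNA against 87.9 with control siRNA in SK-MEL-28. IFIH1 encodes the sensor MDA5, and it was higher on the SK-MEL-28 array with ZIC5 siRNA (0.68) and level in A375 (0.02). BST2 had an intensity of 22.5 with ZIC5 siRNA and 28.3 with control siRNA in A375, and of 400.2 with ZIC5 siRNA and 422 with control siRNA in SK-MEL-28. BST2 is the membrane tether that holds budding virions on the cell, and both A375 intensities were under 32. IFI6 read 187 with ZIC5 siRNA against 251 with control siRNA in A375, and 1146 with ZIC5 siRNA against 1089 with control siRNA in SK-MEL-28. IFI6, an antiviral membrane protein, had -0.42 in A375 and 0.07 in SK-MEL-28. IFI35 had an intensity of 322 with ZIC5 siRNA and 361 with control siRNA in A375, and of 439 with ZIC5 siRNA and 449.5 with control siRNA in SK-MEL-28. IFI44 read 516 with ZIC5 siRNA against 445 with control siRNA in A375, and 270.0 with ZIC5 siRNA against 273 with control siRNA in SK-MEL-28. IFI35 is an interferon-induced leucine zipper protein and IFI44 an interferon-induced cytoplasmic protein. On the probe sets used, their log2 differences lay between -0.17 and 0.21 in both lines. The other measured IFI44 probe set had -0.29 for A375 and -0.17 for SK-MEL-28.

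IRF1, IRF7 and IRF9 are transcription factors of the interferon regulatory family. IRF1 had an intensity of 241 with ZIC5 siRNA and 198 with control siRNA in A375, and of 91.3 with ZIC5 siRNA and 87.0 with control siRNA in SK-MEL-28. IRF7 read 149 with ZIC5 siRNA against 107 with control siRNA in A375, and 138 with ZIC5 siRNA against 122 with control siRNA in SK-MEL-28. IRF9 had an intensity of 186 with ZIC5 siRNA and 147 with control siRNA in A375, and of 252 with ZIC5 siRNA and 229 with control siRNA in SK-MEL-28. In each of these genes the ZIC5 siRNA array was above the control array of the same line, with A375 log2 differences of 0.29 for IRF1, 0.48 for IRF7 and 0.34 for IRF9. In SK-MEL-28 the differences were 0.07, 0.18 and 0.14 in the same order. Those of IRF1 and IRF9 were under 0.15, the median SD over a gene's probe sets in that line. The other measured IRF1 probe set had 0.32 for A375 and 0.39 for SK-MEL-28. IRF9 is the DNA-binding partner of the STAT complex, IRF7 drives interferon genes and IRF1 drives many class I genes. None of the 3 passed limma, with adjusted p between 0.488 and 0.674.

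**Figure D2:**
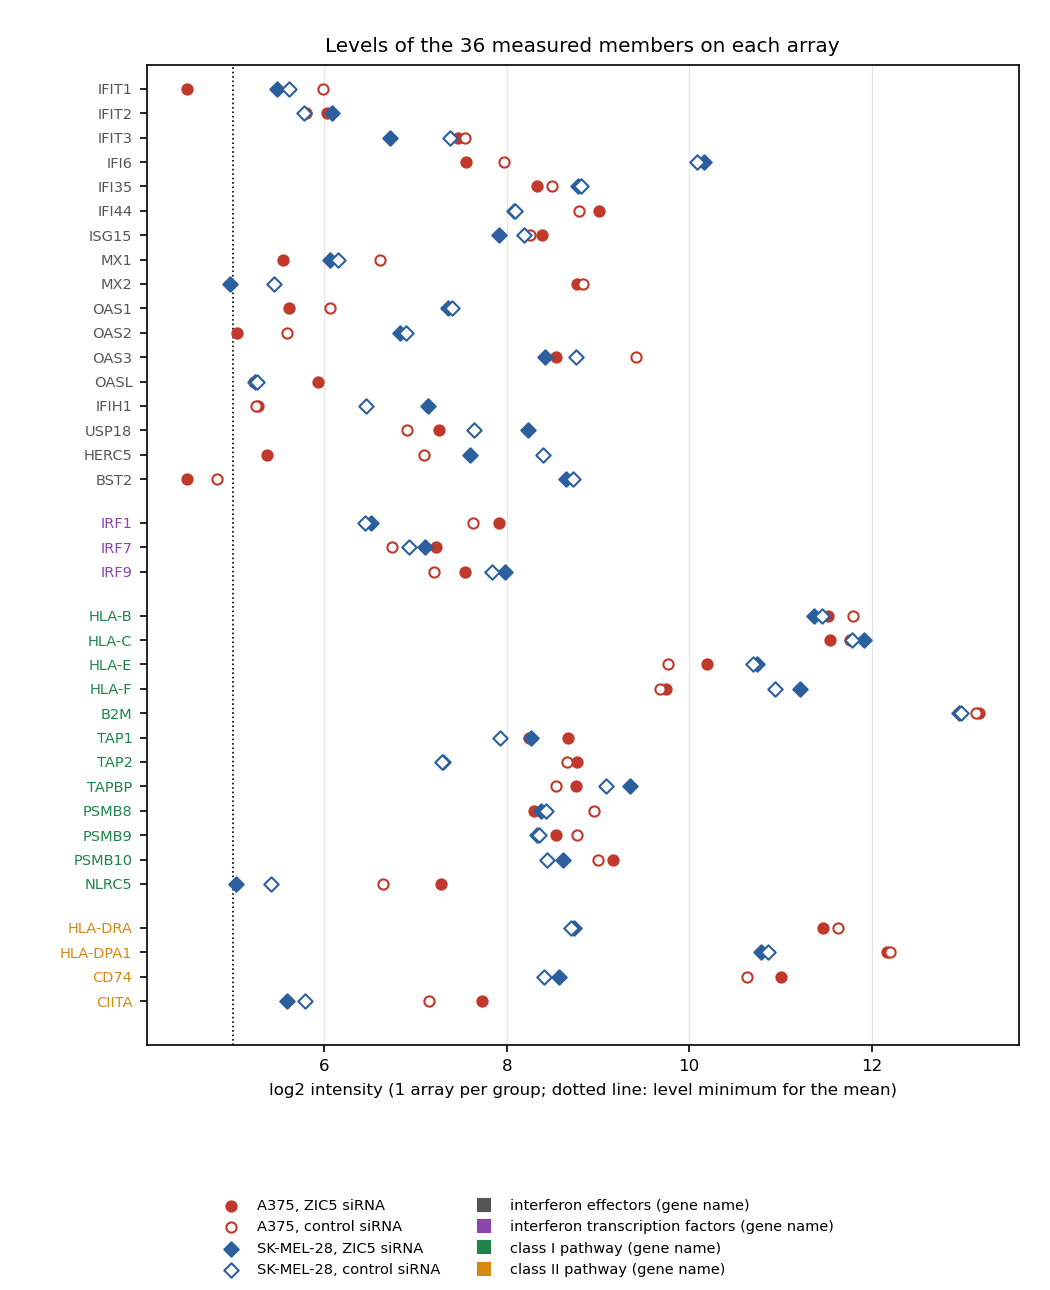
Log2 intensity (x axis) of the 36 measured genes on each of the 4 arrays, with filled symbols for ZIC5 siRNA, open symbols for control siRNA, circles for A375 and diamonds for SK-MEL-28. The class II genes and MX2 are higher on both A375 arrays, and BST2, IFI6, OAS1 and OAS2 are lower on both.

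Class I molecules pair a polymorphic HLA heavy chain with beta-2 microglobulin. HLA-B had an intensity of 2943 with ZIC5 siRNA and 3559 with control siRNA in A375, and of 2643 with ZIC5 siRNA and 2804 with control siRNA in SK-MEL-28. HLA-C read 2973 with ZIC5 siRNA against 3478 with control siRNA in A375, and 3875 with ZIC5 siRNA against 3528 with control siRNA in SK-MEL-28. The classical heavy chains HLA-B and HLA-C, neighbours on chromosome 6, had A375 log2 differences of -0.27 and -0.23, and SK-MEL-28 differences of -0.08 and 0.14. HLA-E had an intensity of 1174 with ZIC5 siRNA and 874 with control siRNA in A375, and of 1717 with ZIC5 siRNA and 1668 with control siRNA in SK-MEL-28. HLA-E, which presents leader peptides to NK cell receptors, was higher with ZIC5 siRNA in A375 (0.43) and level in SK-MEL-28 (0.04). HLA-F read 860.3 with ZIC5 siRNA against 817 with control siRNA in A375, and 2368 with ZIC5 siRNA against 1967 with control siRNA in SK-MEL-28. HLA-F, also non-classical, had 0.07 in A375 and 0.27 in SK-MEL-28. B2M had an intensity of 9241 with ZIC5 siRNA and 9054 with control siRNA in A375, and of 7927 with ZIC5 siRNA and 8039 with control siRNA in SK-MEL-28. B2M, the light chain of every class I molecule, stayed within 0.03 of control in both lines. The probe sets used for the 4 heavy chains are of a kind that can bind transcripts of related genes, and HLA sequences differ between lines, so their values are uncertain as readings of one gene.

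Before loading, proteins are cut by the immunoproteasome. PSMB8 read 314 with ZIC5 siRNA against 497 with control siRNA in A375, and 332 with ZIC5 siRNA against 346 with control siRNA in SK-MEL-28. PSMB9 had an intensity of 371 with ZIC5 siRNA and 436 with control siRNA in A375, and of 322 with ZIC5 siRNA and 327 with control siRNA in SK-MEL-28. PSMB10 read 575 with ZIC5 siRNA against 512 with control siRNA in A375, and 391 with ZIC5 siRNA against 349 with control siRNA in SK-MEL-28. These are its 3 inducible catalytic subunits, and they did not share a direction in A375: PSMB8 had -0.66, PSMB9 -0.23 and PSMB10 0.17. In SK-MEL-28 they had -0.06, -0.02 and 0.16 in the same order. On the probe sets used, PSMB8 was the lowest of the 12 class I genes in A375 and stood 1.58-fold below control there.

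Peptides are then carried into the endoplasmic reticulum and loaded. TAP1 had an intensity of 407 with ZIC5 siRNA and 303 with control siRNA in A375, and of 307 with ZIC5 siRNA and 243 with control siRNA in SK-MEL-28. TAP2 read 436 with ZIC5 siRNA against 404 with control siRNA in A375, and 157 with ZIC5 siRNA against 156 with control siRNA in SK-MEL-28. TAPBP had an intensity of 434 with ZIC5 siRNA and 372 with control siRNA in A375, and of 654 with ZIC5 siRNA and 544 with control siRNA in SK-MEL-28. TAP1, a subunit of the peptide transporter, was higher with ZIC5 siRNA in both lines, by 0.43 for A375 and 0.34 for SK-MEL-28 (limma adjusted p = 0.429). TAPBP, which bridges the transporter to the empty HLA molecule, had 0.22 for A375 and 0.27 for SK-MEL-28, but its other measured probe set had the opposite sign in both. The partner transporter subunit TAP2 was near control on the probe set used (0.11 in A375). Another of nearly the same mean level had -0.90 for A375 and -0.46 for SK-MEL-28. The dimmest measured TAP2 probe set had -0.58 for A375 and 0.12 for SK-MEL-28. The genes TAP2, PSMB8, TAP1 and PSMB9 follow each other on chromosome 6 in that order, and their A375 differences had mixed signs. NLRC5 read 156 with ZIC5 siRNA against 100.2 with control siRNA in A375, and 32.8 with ZIC5 siRNA against 42.8 with control siRNA in SK-MEL-28. NLRC5, the transactivator of class I genes, was higher with ZIC5 siRNA in A375 (0.63) and lower in SK-MEL-28 (-0.39), where its intensity was near the level minimum.

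Of the class II genes, HLA-DRA and HLA-DPA1 encode alpha chains, CD74 the invariant chain that guards the peptide groove and CIITA the transactivator that switches the pathway on. HLA-DRA had an intensity of 2820.4 with ZIC5 siRNA and 3168 with control siRNA in A375, and of 426 with ZIC5 siRNA and 418 with control siRNA in SK-MEL-28. HLA-DPA1 read 4604 with ZIC5 siRNA against 4699 with control siRNA in A375, and 1771 with ZIC5 siRNA against 1858 with control siRNA in SK-MEL-28. Both alpha chains stayed within 0.17 of control in each line. CD74 had an intensity of 2049 with ZIC5 siRNA and 1588 with control siRNA in A375, and of 381 with ZIC5 siRNA and 339 with control siRNA in SK-MEL-28. CIITA read 211 with ZIC5 siRNA against 142 with control siRNA in A375, and 48.1 with ZIC5 siRNA against 55.1 with control siRNA in SK-MEL-28. CD74 had 0.37 for A375 and 0.17 for SK-MEL-28. Its other measured probe sets, both dimmer, had 0.39 and -0.42 for A375, and -0.19 and 0.01 for SK-MEL-28 in the same order. CIITA had 0.57 for A375 and -0.20 for SK-MEL-28. The other measured CIITA probe set had -0.06 in A375. On the probe sets used, the transactivators of both classes, NLRC5 and CIITA, differed upwards in A375 and downwards in SK-MEL-28, and no HLA heavy or alpha chain differed by as much as either of them in A375.

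Set side by side, the 17 measured effectors had a median log2 difference of -0.17 for A375 and -0.07 for SK-MEL-28, the 12 class I genes 0.09 and 0.03, and the 4 class II genes 0.17 and -0.02, against -0.01 and 0.00 over all measured genes. Among the effectors 11 of 17 were lower in A375, 13 of 17 in SK-MEL-28 and 10 of 17 in both (58.8%), where 51.2%, 49.6% and 32.5% of all measured genes were. Of the 12 class I genes 4 were lower in A375, 5 in SK-MEL-28 and 3 in both. A log2 difference of at least 0.5 in size was found for 9 of 36 genes in A375, of which 6 were effectors, 2 class I genes and 1 a class II gene, and for 4 in SK-MEL-28, all of them effectors. Over all measured genes 30.9% reached that size in A375 and 14.5% in SK-MEL-28, so the counts of the list were near the background. The sign was the same in both lines for 27 of 36 genes (75%) and for 64% of all measured genes.

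**Figure D3:**
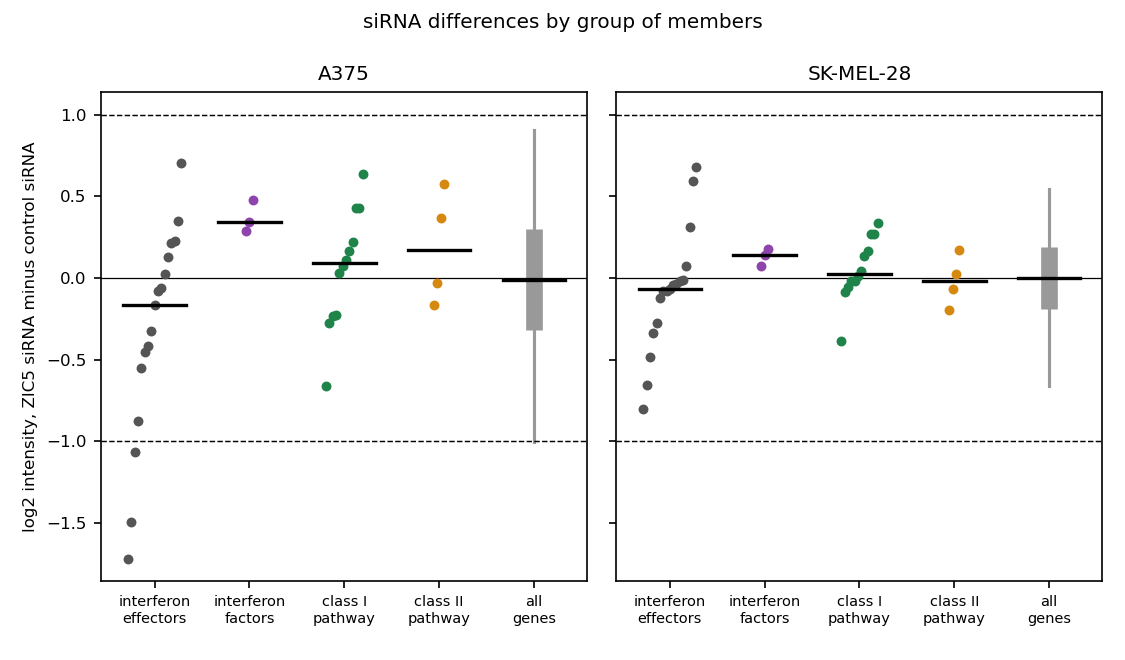
siRNA differences by group in A375 (left) and SK-MEL-28 (right), in log2 intensity, ZIC5 siRNA minus control siRNA, with 1 point per measured gene and a bar at the group's median. The grey box and line for all 13794 measured genes span the middle 50% and the middle 90%. Among the points, the effectors, the largest group, hold both the lowest and the highest in both lines.

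The siRNA differences can be set beside the ISRE matches. The 17 measured genes with a match in their promoter had a median log2 difference of 0.02 in A375, with a range between -1.72 and 0.43, and of -0.02 in SK-MEL-28, with a range between -0.80 and 0.68. The 9 measured genes with a promoter in the table and no match had a median of -0.17 in A375, with a range between -0.45 and 0.37, and of -0.02 in SK-MEL-28, with a range between -0.08 and 0.17. Among genes with a promoter in the table, the lowest A375 differences, those of HERC5, IFIT1, MX1, OAS3 and PSMB8, were all of genes with a match. These were picked by their differences, and most genes had a match anyway, with 17 against 9. MX1 and PSMB8 also had a promoter without a match. B2M, with 2 matches, stayed near control. The part of the motif in these differences was not tested.

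Probe sets of the same gene give the only other reading of a difference within an array. Of the 36 genes, 17 had more than 1 measured probe set, and all of a gene's probe sets had the same sign for 7 genes in A375, for 7 in SK-MEL-28 and for 12 in the comparison of the lines. Over all measured genes, the SD among a gene's probe sets had a median of 0.25 for A375 and of 0.15 for SK-MEL-28. HERC5, IFIT1 and MX1 had 1 measured probe set each, so no second reading of the 3 lowest A375 differences was at hand.

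**Figure D4:**
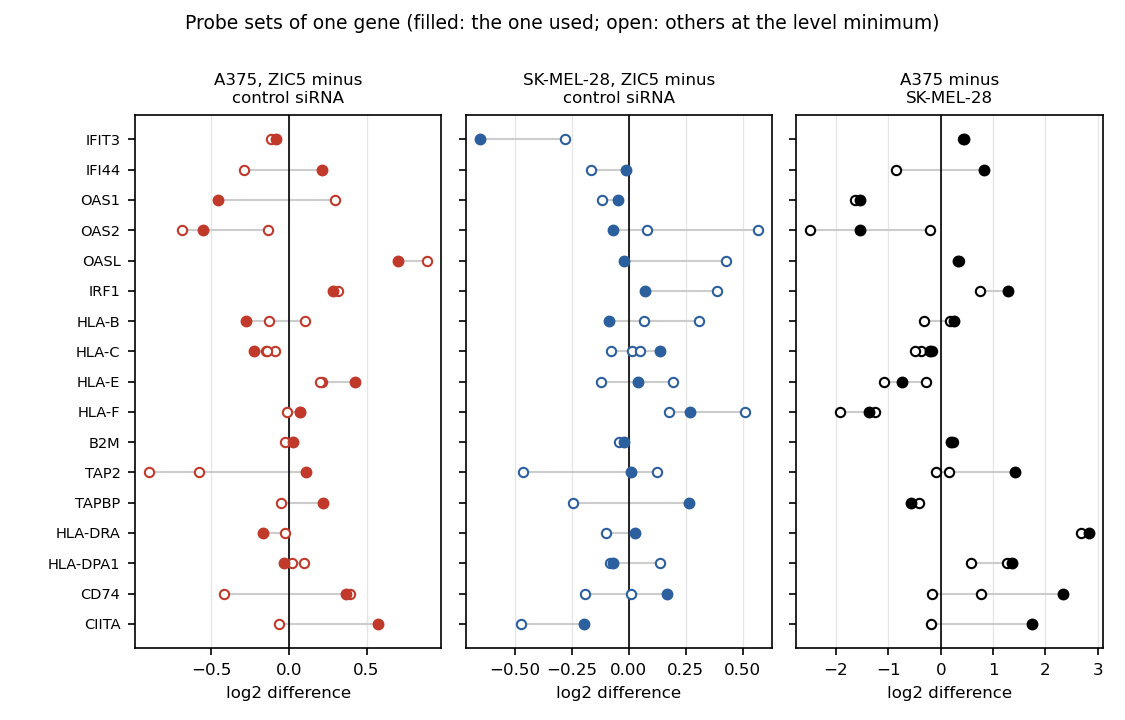
Log2 differences of every measured probe set of the 17 genes that had more than 1, with the probe set used filled and the others open, for ZIC5 siRNA minus control siRNA in A375 (left), the same in SK-MEL-28 (middle) and A375 minus SK-MEL-28 (right). The probe sets of IFI44 lie on both sides of 0 in the right panel, at 0.82 and -0.85.

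Around these genes, 86 of 114 further genes of the same pathways, in 7 lists, were measured, and 0 of 86 passed limma at an adjusted p under 0.05. At an unadjusted p under 0.05, 3 were higher and 11 lower with ZIC5 siRNA, where 5.91% of all measured genes were higher and 7.31% lower. Of the 86, 3 were at least 2-fold lower in A375 (HLA-DQB1, GBP1 and CTSS) and 2 of these also in SK-MEL-28, and none was at least 2-fold higher in either, where 5.05% of all measured genes were at least 2-fold lower in A375, 2.12% in SK-MEL-28 and 1.15% in both. Their medians were -0.04 in A375 and -0.14 in SK-MEL-28. None of the 8 interferon genes with a probe set was measured, and no intensity of theirs exceeded 29.4 on any array.

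The 2 genes at least 2-fold lower in both lines were HLA-DQB1, a class II beta chain, and GBP1, an interferon gamma-induced GTPase. HLA-DQB1 had an intensity of 194 with ZIC5 siRNA and 441 with control siRNA in A375, and of 292 with ZIC5 siRNA and 702 with control siRNA in SK-MEL-28. Its mean log2 difference was -1.22 (SE 0.17, limma adjusted p = 0.268), and all 4 measured probe sets were lower in both lines, though all 4 are of the kind that can bind related genes. GBP1 read 88.1 with ZIC5 siRNA against 183 with control siRNA in A375, and 189 with ZIC5 siRNA against 389 with control siRNA in SK-MEL-28. GBP1 had a mean log2 difference of -1.05 (SE 0.17, limma adjusted p = 0.27), and its 3 measured probe sets were lower in both lines. GBP2 had an intensity of 65.2 with ZIC5 siRNA and 126 with control siRNA in A375, and of 58.7 with ZIC5 siRNA and 114 with control siRNA in SK-MEL-28. GBP2, a paralog of GBP1, had -0.95 in A375 and -0.95 in SK-MEL-28 (limma adjusted p = 0.27). None of these passed the threshold. On the probe sets used, HLA-DQB1 was lower while HLA-DRA and HLA-DPA1 were near control on the same arrays.

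Upstream, IFNAR1, a chain of the type I interferon receptor, had -0.83 for A375 and -0.56 for SK-MEL-28. The kinase JAK2 had 0.60 for A375 and 0.02 for SK-MEL-28. The inhibitors SOCS3 and PTPN2 had -0.47 and -0.43 for A375 and -0.15 and -0.45 for SK-MEL-28. The other measured SOCS3 probe set shared its sign in neither line. These 4 genes were named for the size of their differences. Of the 14 measured receptors, kinases and inhibitors 7 were higher and 7 lower in A375, and 5 were higher and 9 lower in SK-MEL-28. Among the nucleic acid sensors and their adaptors, TRIM25, a ligase that activates the sensor RIG-I, had 0.67 for A375 and 0.74 for SK-MEL-28. The other measured TRIM25 probe set did not share the sign in SK-MEL-28. The kinase TBK1 had 0.48 for A375 and 0.31 for SK-MEL-28. The endosomal sensor TLR3 had -0.55 for A375 and -0.31 for SK-MEL-28, and ADAR, which edits double-stranded RNA, -0.34 and -0.40. Sensors and their relays therefore lay on both sides of control.

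Further effectors named by the same rule were IFIT5, with -0.84 for A375 and -0.68 for SK-MEL-28, and TRIM5, a restriction factor of retroviral capsids, with -0.52 and -0.57. In the class I pathway, the constitutive proteasome subunits that the inducible ones replace had -0.62 for PSMB5, -0.73 for PSMB6 and 0.43 for PSMB7 for A375, and -0.34, -0.53 and 0.18 for SK-MEL-28 in the same order. TAPBPL, a peptide editor, had -0.41 for A375 and -0.58 for SK-MEL-28, and the trimming peptidase ERAP2 0.06 and 0.35. RFX5 and RFXANK, subunits of the factor that recruits CIITA and NLRC5 to HLA promoters, lay on opposite sides, with -0.70 and 0.91 for A375 and -0.39 and 0.42 for SK-MEL-28. In the class II pathway, the peptide-exchange chains HLA-DMA and HLA-DMB had -0.32 and -0.55 for A375 and -0.44 and 0.11 for SK-MEL-28. The protease CTSS, which degrades the invariant chain, had -1.08 in A375 and -0.55 in SK-MEL-28.

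More genes of the list differed between the lines than between the transfections. All 4 class II genes of the list were higher in A375, and most effectors that differed were lower in A375. Of the 36 measured genes 18 passed limma for the line at an adjusted p under 0.05, 9 higher in A375 and 9 lower in A375 than in SK-MEL-28, where 14.2% of all measured genes were higher in A375 and 13.4% lower. The 9 higher were MX2, IFI44, IRF1, TAP2, NLRC5 and the 4 class II genes, and the 9 lower were IFI6, OAS1, OAS2, IFIH1, USP18, HERC5, BST2, HLA-E and HLA-F. The line difference is the mean over both transfections of log2 intensity in A375 minus that in SK-MEL-28, with n = 2 arrays per line. Its SE rests on how far that difference changed from one transfection to the other, drawn by limma towards the values of other genes. Whether the arrays of a line came from separate cultures is not stated, so the SE does not measure the spread between cultures.

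**Figure D5:**
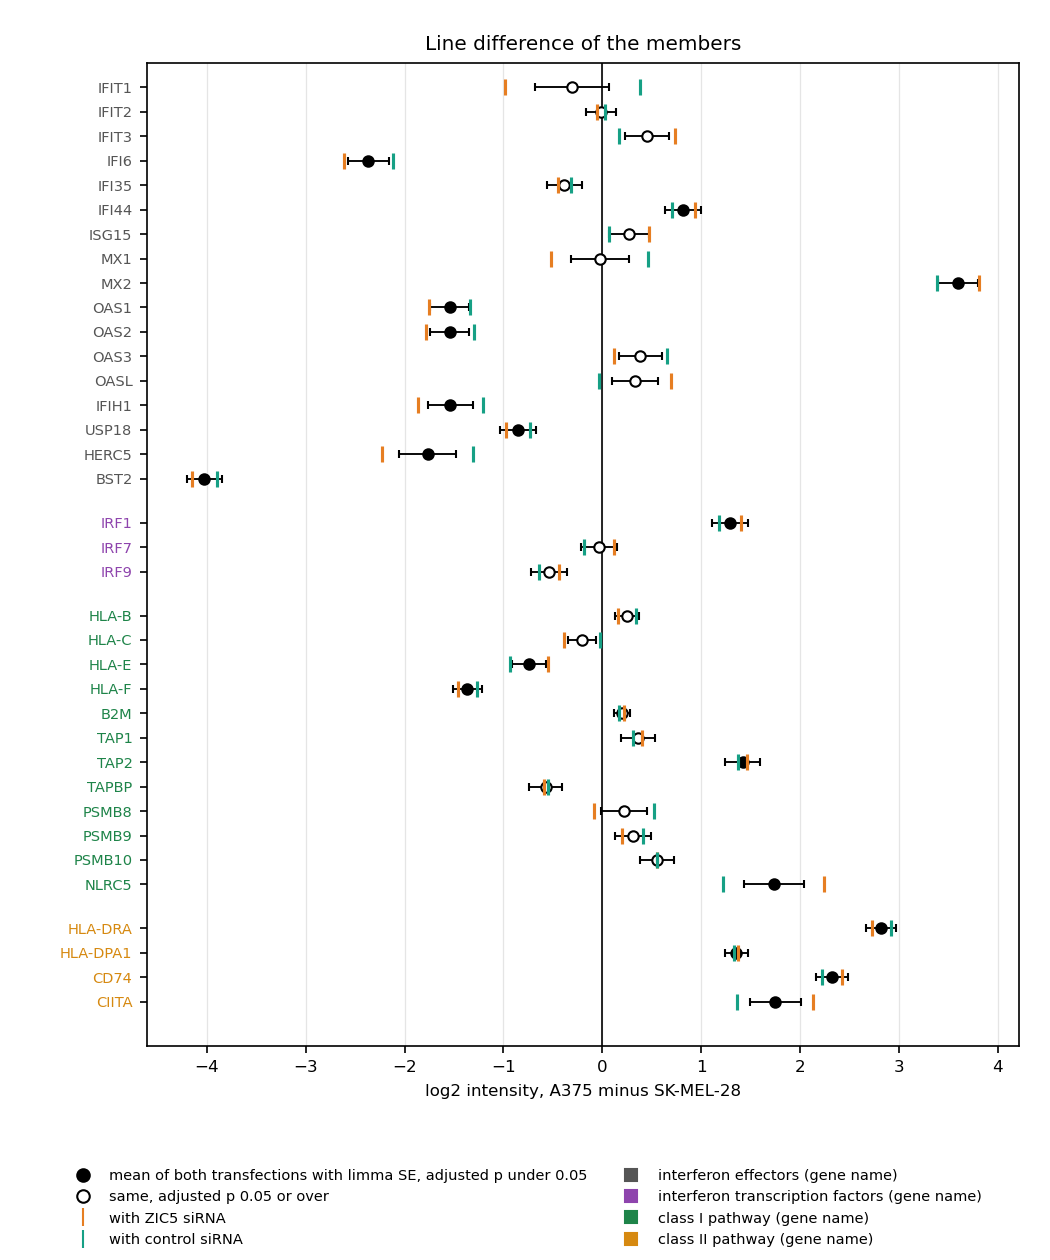
Line differences of the 36 measured genes, as log2 intensity in A375 minus that in SK-MEL-28 (x axis), with the mean over both transfections and the limma SE as a bar, filled where the adjusted p is under 0.05, and ticks for the difference with ZIC5 siRNA and with control siRNA. The extremes are MX2 at 3.60 and BST2 at -4.03, and the ticks lie on the same side of 0 for every filled point.

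Among the 4 class II genes of the list the A375 arrays were the high ones whichever siRNA was given, while 2 of 9 further class II genes passed limma as higher in A375 and 0 as lower. HLA-DQB1, one of those 9, had a line difference of -0.63 (limma adjusted p = 0.0697). HLA-DRA had a line difference of 2.82 (SE 0.15, limma adjusted p = 0.0038), a level 7.08-fold that of SK-MEL-28. CD74 had 2.33 (SE 0.16, limma adjusted p = 0.00571), or 5.02-fold, and HLA-DPA1 1.36 (SE 0.11, limma adjusted p = 0.00761). Their transactivator CIITA went the same way, with 1.75 (SE 0.26, limma adjusted p = 0.02), but its other measured probe set had -0.18, and the dimmest of 3 measured CD74 probe sets had -0.17. The leukocyte marker PTPRC, which would mark immune cells among the cultured cells, had intensities between 5.44 and 7.70 on the 4 arrays. Of the 12 leukocyte markers with a probe set 7 were measured, and the intensities of all 12 summed to 601 with ZIC5 siRNA and 914 with control siRNA in A375, and 472 with ZIC5 siRNA and 499 with control siRNA in SK-MEL-28. Of these, LYZ, picked out after its values were seen, had 195 and 434 in A375 with ZIC5 siRNA and control siRNA, and 27.8 and 37.4 in SK-MEL-28, and the part of these markers in the class II difference was not tested.

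Class I genes did not share a direction between the lines. NLRC5 was higher in A375 by 1.74 (SE 0.30, limma adjusted p = 0.0279), and HLA-F was lower, with -1.36 (SE 0.15, limma adjusted p = 0.0118), as was HLA-E, with -0.74 (limma adjusted p = 0.0489). TAP2 had 1.42 (SE 0.18, limma adjusted p = 0.0149) on the probe set used and 0.16 and -0.08 on its other measured ones. The other class I genes did not pass, with line differences of 0.20 for B2M, 0.25 for HLA-B, -0.20 for HLA-C and 0.36 for TAP1, and those of TAPBP, PSMB8, PSMB9 and PSMB10 lay between -0.57 and 0.55. The transactivator of the pathway and its heavy chains therefore did not differ between the lines in one direction.

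Among effectors, the BST2 line difference was the lowest of the list, -4.03 (SE 0.18, limma adjusted p = 0.00281), and -3.68 with intensities under 32 set to 32, since both A375 arrays lay under that value. IFI6 had -2.37 (SE 0.21, limma adjusted p = 0.00823), a level 5.16-fold lower in A375. OAS1 and OAS2 had -1.54 and -1.54 (limma adjusted p = 0.0153 and 0.0157), while OAS3, which lies between them on the chromosome, had 0.38 and did not pass. The sensor IFIH1 had -1.54 (SE 0.23, limma adjusted p = 0.0204), HERC5 -1.76 (SE 0.29, limma adjusted p = 0.0249) and USP18 -0.85 (SE 0.19, limma adjusted p = 0.0434). MX2 went against this direction, with 3.60 (SE 0.20, limma adjusted p = 0.00402), a level 12.1-fold that of SK-MEL-28, while its neighbour MX1 had -0.02. IFI44 had 0.82 (limma adjusted p = 0.0447), a direction that its other probe set reversed. The line differences of IFIT1, IFIT2, IFIT3, IFI35, ISG15 and OASL lay between -0.38 and 0.45 and did not pass.

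IRF1 was higher in A375 by 1.29 (SE 0.18, limma adjusted p = 0.0185), and its other measured probe set was also higher. IRF7 had a line difference of -0.03 and IRF9 of -0.54, neither of which passed. By group, the median line difference was -0.30 for the effectors, -0.03 for the transcription factors, 0.24 for the class I genes and 2.04 for the class II genes, against 0.01 over all measured genes. For HERC5 the line difference was of different size under each siRNA, with -2.22 under ZIC5 siRNA and -1.31 under control siRNA, and for IFIT1 and MX1 it had a different sign under each, with -0.99 and -0.51 under ZIC5 siRNA and 0.38 and 0.47 under control siRNA.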

How the data were processed

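RNA from 4 samples, 1 per group, was hybridised to 1 array each. The deposited intensity of each probe set was made by the authors with RMA; the submitters' processing notes name it beside Affymetrix Expression Console, and its version is not given in the sources used here. All values were linear, and log2 was taken here. Samples were grouped by their labels. Of 54613 probe sets, 41091 named 1 gene in the platform annotation, 1801 named several and were not used, and 11721 named none. Symbols were checked by Entrez ID against RefSeq (GRCh38.p14): 41037 matched and 0 symbols changed.

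A gene was read from its brightest probe set by mean log2 intensity, and genes whose mean reached 5 were analysed. Within a line a log2 difference of 1 described size, with no test. Over both lines, limma 3.58.1 in R 4.3.3 fitted siRNA and line together (lmFit and eBayes with trend, 1 residual and 2.85 prior degrees of freedom), with Benjamini-Hochberg adjustment over all 13794 genes at 0.05. The residual is the part of the siRNA difference that the lines did not share, which is also the part of the line difference that the transfections did not share. The labels do not state separate cultures, so p-values do not measure the spread between cultures, and the number of arrays limits the precision. No detection calls were used.

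The text names ZIC5, all members, defining markers and, for each of 7 further lists, up to 4 measured genes with the greatest mean siRNA difference plus any at least 2-fold different in both lines. Members, lists and tests were chosen with earlier results of these data known. Motifs were searched in RefSeq promoters with Python 3.11.15. Alternatives changed the level minimum, low values, probe set choice, scaling and the terms of the fit.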

Additional observations from a re-analysis of the deposited data

Results flagged for a closer look

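The transactivators of both antigen presentation pathways had siRNA differences of opposite sign in the lines, each at least as large as the median SD over a gene's probe sets for that line. NLRC5 had a log2 difference of 0.63 in A375 and -0.39 in SK-MEL-28, so the A375 difference exceeded the SK-MEL-28 one by 1.02. CIITA had 0.57 in A375 and -0.20 in SK-MEL-28, a gap of 0.77. With 1 array per group the gap between the lines was not tested for either gene. On its other measured probe set CIITA had -0.06 for A375 and -0.47 for SK-MEL-28. On the probe set used, its SK-MEL-28 difference was little above the median SD for that line, 0.15. NLRC5 was near the level minimum in SK-MEL-28, at 32.8 with ZIC5 siRNA and 42.8 with control siRNA. Only 64% of all measured genes had the same sign in both lines, so opposite signs were common. How many of all measured genes would meet this rule was not counted.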

How the results depend on the processing

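The fit with the line as a block pairs the arrays of each line, and labels gave no other pairing. The count called for ZIC5 siRNA was 0 under all 10 settings, and at an unadjusted p under 0.05 the fit with no line block gave 268 of all measured genes, against 1824 with it. The count at least 2-fold different in A375 was 3, but 1 with a minimum mean log2 of 7, which leaves IFIT1, MX1 and other dim genes out, and 2 with intensities under 32 set to 32. The effector median in SK-MEL-28 was -0.07, and -0.27 with the minimum of 7. Line calls numbered 18, and between 12 (minimum of 7) and 18 otherwise. The IFI44 line difference of 0.82 became -0.015 with the mean of its probe sets (limma adjusted p = 0.953) and -0.85 with cross-hybridising probe sets left out (limma adjusted p = 0.0239). With the same settings the TAP2 line difference fell short of the threshold at 0.50 (limma adjusted p = 0.113) and 0.16 (limma adjusted p = 0.625), and the CIITA line difference did at 0.78 with the mean (limma adjusted p = 0.0563). IFI44, USP18 and HLA-E fell short with no level minimum, these 3 and HERC5 with no term for transfection, and HLA-E without trend. Quantile and cyclic loess scaling ended no line call and moved the median of all genes by less than 0.1. Of the 118 siRNA differences of single named genes, 20 moved by more than the SD over probe sets with the mean of probe sets and 3 with intensities under 32 set to 32, as did 11 of 114 with cross-hybridising probe sets left out. The causes were not tested. Intensities near or under 32 (IFIT1, MX2, BST2, NLRC5, OAS2) limit what a fold can show, and 1 array per group limits every siRNA difference.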
